A study of Sus scrofa with 30 samples.

Results

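Transcript levels in the cerebral cortex of pigs resuscitated from cardiac arrest under methylene blue were compared between 180 and 30 min after return of spontaneous circulation (ROSC). The comparison was defined by the labels and chosen with earlier results of these data known. It takes the 3 arrays of the 180 min methylene blue group (MB180) and the 3 arrays of the 30 min methylene blue group (MB30), 6 of the 30 arrays in the series. Each array is one Affymetrix porcine expression array with RNA of 1 animal, per the labels' replicate numbers. The remaining group of the arm, taken at 60 min (MB60, 3 arrays), was used only to place the intermediate level.

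Animals were prepubertal farm pigs of a Swedish triple breed, of both sexes, 12 to 14 weeks old and of 25.8 kg on average, anaesthetised with pentobarbital. In MB180 and MB30, ventricular fibrillation was left untreated for 12 min, then 8 min of mechanical chest compressions preceded a countershock. Both groups received saline at 55 ml/kg/h with methylene blue at 7.5 mg/kg/h, started 1 min after compressions began and ended 50 min after ROSC, so that MB30 was sampled during the infusion and MB180 after its end. The saline groups SAL180 and SAL30 (3 animals each) had the same arrest, compressions and saline without methylene blue. The CA0 group (3 animals) had fibrillation induced and the brain removed at 0 min of arrest, so that none of the groups here is an animal without arrest. One piece of whole cortex cannot tell fewer cells of a type from less RNA per cell.

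After global ischaemia and reperfusion, brain cells first induce immediate early genes, whose transcripts are short-lived, and then genes of protein folding, inflammation and repair. Heat shock chaperones keep damaged proteins soluble and, with co-chaperones such as BAG3, pass them to autophagy, while chemokines such as CXCL2 call neutrophils to the tissue. Methylene blue is a redox dye that accepts and passes on electrons and inhibits nitric oxide synthase and soluble guanylate cyclase.

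The 6 arrays were of like overall level, with median intensities of 102.7 to 108.5 and pairwise correlations over all probe sets of 0.951 to 0.968 on the log2 scale. Cortical markers were present on all of them: summed intensities were 52483 to 69717 in MB180 and 61340 to 73137 in MB30 for 15 neuronal genes, and 48134 to 62066 in MB180 and 55048 to 76779 in MB30 for 11 astrocyte genes. A pair of further properties differed between MB180 and MB30. The log2 ratio of 3' to 5' signal of control transcripts, which rises as RNA is degraded or copied incompletely, was 0.97 to 1.20 in MB180 and 0.85 to 0.88 in MB30, without overlap. EIF1AY, a gene of the Y chromosome, had intensities of 608, 507 and 521 in MB180 and of 9.03, 4.70 and 581 in MB30, so that it was high in 3 of 3 animals at 180 min and in 1 of 3 at 30 min. The labels do not name the sex of each animal, so sex may be unbalanced between MB180 and MB30. The part of either property in the results below was followed only by adding it to the fit as a covariate.

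Of 16799 probe sets tested, 48 differed between MB180 and MB30 at a limma adjusted p under 0.05 (0.286% of those tested). They split into 31 that were higher in MB180 (0.185%) and 17 that were lower (0.101%). At 180 min the acute-phase regulator CEBPD, the chaperone genes HSPA6, HSPB8 and BAG3 and the calcium channel regulator RRAD were higher, and the chemokine CXCL2, the early-response genes KLF4 and DUSP1 and the transcription inhibitor ID3 were lower. Absolute log2 differences of the 48 ranged from 0.51 to 2.45 with a median of 1.14. The 3 MB180 arrays did not overlap the 3 MB30 arrays in any of the 48, a separation that 11.2% of all tested probe sets showed. A gene symbol was available for 21 of the 48, of which 16 were higher and 5 lower, and 27 had none. At an unadjusted p under 0.05 there were 1159 probe sets (6.9%), where 840 would be passed with no difference anywhere.

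**Figure D1:**
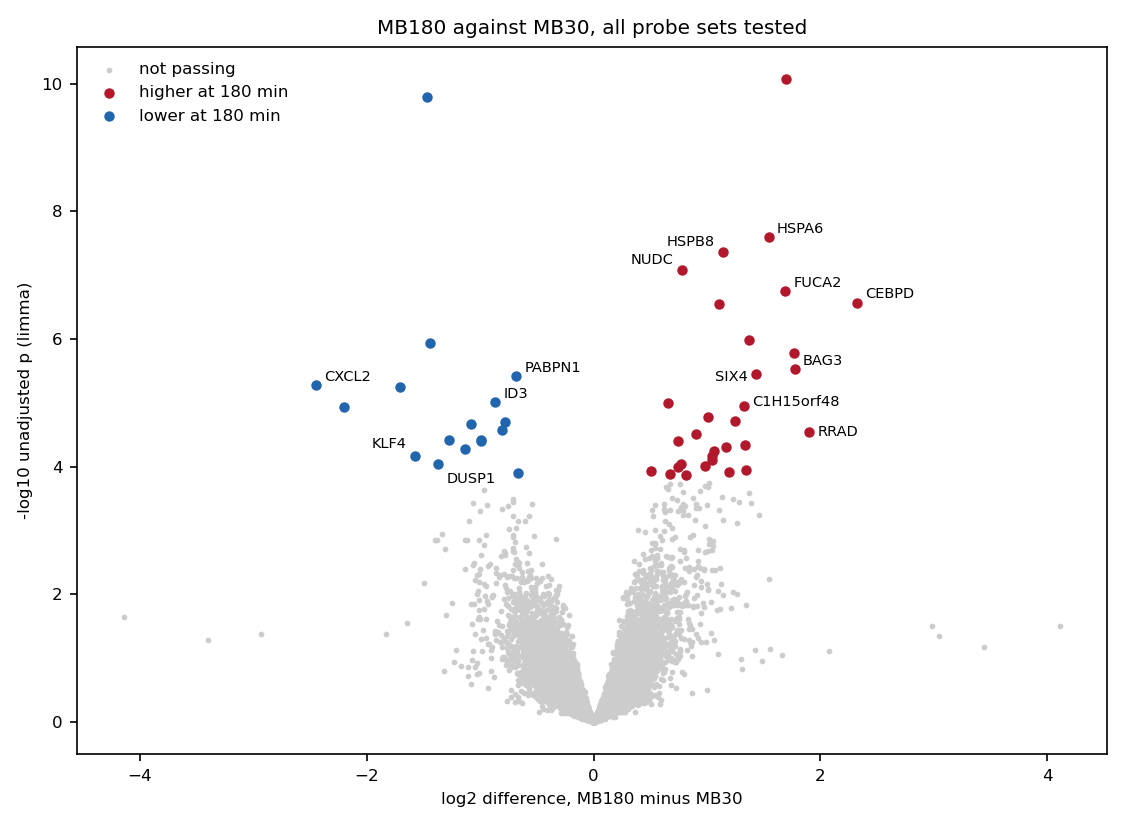
Each point is one of the 16799 probe sets tested, with the log2 difference MB180 minus MB30 on the x axis and minus log10 of the unadjusted limma p on the y axis. Red points mark the 31 probe sets that passed as higher in MB180, blue points the 17 that passed as lower, and grey points the rest; the outlying grey points beyond 2.5 on either side include EIF1AY and have large standard errors.

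The count of calls depended on where the spread was estimated. The 10 groups of the series shared one estimate, and a fit to the 6 arrays alone left 5 higher and 1 lower. With EIF1AY as a covariate, a choice made after seeing the data, 15 higher and 10 lower probe sets passed, of which 15 and 9 were among the 48. With the 3' to 5' ratio as a covariate 35 higher and 18 lower passed, 30 and 17 of them among the 48. CEBPD, HSPA6 and HSPB8 passed under every alternative that was run.

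The chemokine and the acute-phase factor moved in opposite directions. CXCL2 (Ssc.4871.1.S1_at), a chemokine that attracts neutrophils, had intensities of 21.2, 106 and 64.6 in MB180, against 473, 275 and 404 in MB30. Every 180 min animal lay below every 30 min animal, by 6.0-fold in the means and by a log2 difference of -2.45 ± 0.43 (SE, n = 3 each, limma adjusted p = 0.00595). At 60 min the 3 animals had 47.5, 110 and 120, already near the later level. The MB180 arrays overlapped the 15.2 to 64.7 of CA0, and the MB30 arrays lay wholly above that range. The call was lost without MB180 replicate 1 (adjusted p = 0.0626), the animal with the lowest value. It was also lost in limma fits to the 6 arrays alone (adjusted p = 0.113) and to the methylene blue arm alone (0.0683).

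CEBPD (Ssc.10025.3.S1_at), a transcription factor of the acute-phase response, had 955, 1022 and 1022 in MB180 and 214, 192 and 158 in MB30. The 180 min animals were closely alike and 5.32-fold above those at 30 min (log2 difference 2.32 ± 0.34, limma adjusted p = 0.000594). At 60 min 1 animal had 387 and the others 194 and 160, within the range at 30 min, so the group mean had covered 12.0% of the log2 distance. CA0 animals had 224, 104 and 142, overlapping MB30. A pair of further CEBPD probe sets lay below the filter on low values, with means of 39.2 and 46.8 in MB180 and 5.34 and 14.7 in MB30.

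Of 30 tested genes of the inflammation and adhesion list, CEBPD rose, CXCL2 fell and 28 did not pass, where 0.286% of all probe sets tested passed. The list's median log2 difference was 0.30, against -0.01 for all probe sets tested. Of the 30, 23 (76.7%) lay above 0, against 48.1% of all probe sets tested. ICAM1, the leukocyte adhesion molecule of activated endothelium, had 120, 353 and 332 in MB180 and 152, 144 and 143 in MB30, an overlap through 1 low animal (log2 difference 0.68 ± 0.26, adjusted p = 0.491). Without that animal, MB180 replicate 1, its difference was 1.14 and passed (adjusted p = 0.0107). IL1B, the interleukin that starts fever and endothelial activation, had 131 to 204 in MB180 and 173 to 229 in MB30 and did not pass (-0.25 ± 0.23).

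All chaperone genes that passed were higher at 180 min. HSPA6 (Ssc.114.1.S1_at), an inducible member of the HSP70 family, had 4808, 5114 and 5758 in MB180, against 1940, 1846 and 1567 in MB30. All 3 animals at 180 min lay far above the earlier ones, by 2.93-fold (log2 difference 1.54 ± 0.20, limma adjusted p = 0.00014). Its 60 min values of 2639, 4035 and 3676 fell between the groups. CA0 animals had 138, 128 and 81.1, so both MB180 and MB30 stood wholly above the arrest control.

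BAG3 (Ssc.13649.1.S1_at), the co-chaperone that couples HSP70 to selective autophagy, had 2421, 3864 and 3245 in MB180 and 965, 1126 and 676 in MB30. The groups were apart by 3.44-fold (log2 difference 1.77 ± 0.30, adjusted p = 0.0042), and 2 of the 3 animals at 60 min, with 2883 and 2828, had reached the range at 180 min. A second BAG3 probe set differed by 1.05 and did not pass (adjusted p = 0.229). HSPB8 (Ssc.10237.1.S1_at), the small heat shock protein that works in one complex with BAG3, had 2347, 2283 and 2626 in MB180 and 1010, 1247 and 1020 in MB30. It was 2.21-fold higher at 180 min (log2 difference 1.14 ± 0.15, adjusted p = 0.000184). In contrast to BAG3, HSPB8 at 60 min had 1190, 1310 and 1038, overlapping the 30 min animals, and the mean had covered 9.58% of the log2 distance.

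NUDC (Ssc.17619.1.S1_at), a dynein-associated protein that also acts as an HSP90 co-chaperone, had 1448, 1386 and 1392 in MB180 and 791, 878 and 783 in MB30. This was a small but tight difference of 1.72-fold (log2 difference 0.78 ± 0.10, adjusted p = 0.000281). NUDC in MB30 overlapped CA0 (957, 940 and 803), and MB180 lay above both.

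Of 27 tested genes on the heat shock and cytosolic chaperone list, HSPA6, HSPB8 and BAG3 rose and none fell. Among all probe sets tested, 0.185% passed as higher. The list's median log2 difference was 0.18 and 23 of the 27 were above 0, against 48.1% of all probe sets tested. HSP70.2, under which the array lists the stress-inducible chaperone HSPA1A, had 8347 to 11776 in MB180 and 7657 to 11310 in MB30, an almost complete overlap (log2 difference 0.18 ± 0.35, adjusted p = 0.994). DNAJB1, the HSP40 partner of HSP70, had 2597 to 2710 in MB180 and 2203 to 3471 in MB30 (0.04 ± 0.28, adjusted p = 0.996). In the integrated stress and unfolded protein response list none of 21 tested genes passed, with a median of 0.19 and 17 (81.0%) above 0. XBP1, the transcription factor of the endoplasmic reticulum stress response, had 1204 to 1401 in MB180 and 886 to 1024 in MB30, without overlap (0.45 ± 0.12, adjusted p = 0.155). DDIT3, which promotes cell death under prolonged stress, had 750 to 988 in MB180 and 533 to 615 in MB30 (0.49 ± 0.15, adjusted p = 0.263). ATF3, a stress-induced repressor, had the opposite sign with 230 to 331 in MB180 and 374 to 572 in MB30 (-0.72 ± 0.30, adjusted p = 0.578).

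**Figure D2:**
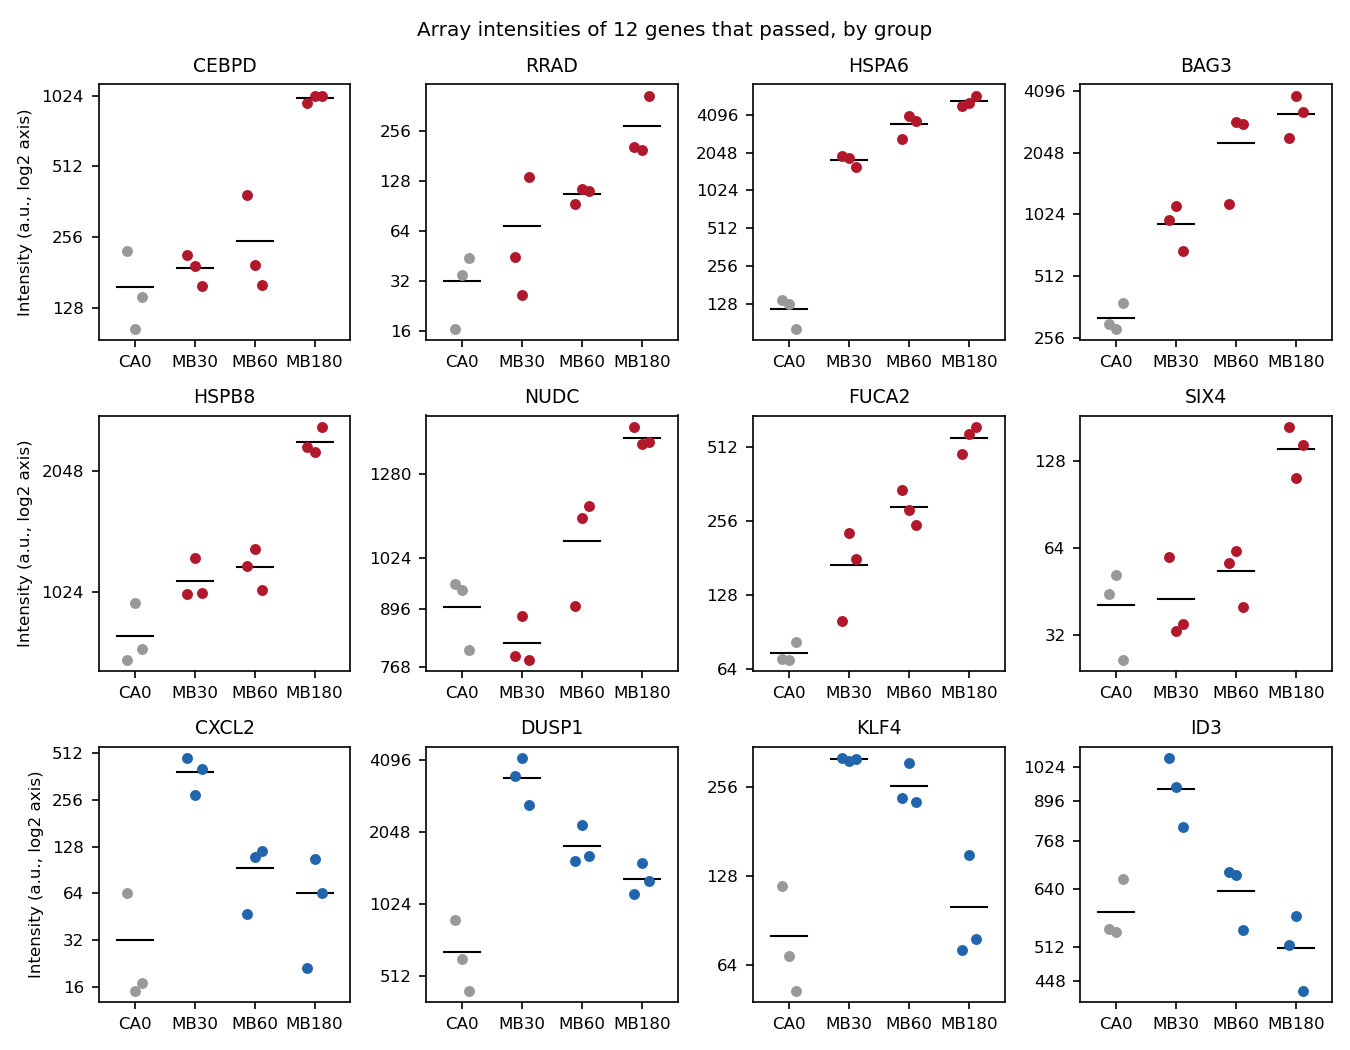
Intensities (arbitrary units, log2 axes that differ between panels) of 12 genes that passed, one point for each animal and a line at the mean of each group of 3, from the 0 min arrest control through 30, 60 and 180 min of reperfusion under methylene blue. Red marks genes higher and blue genes lower in MB180 than in MB30; CEBPD, HSPB8 and SIX4 at 60 min still overlap the 30 min points, and CXCL2 and DUSP1 at 60 min lie below all 30 min points.

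Among early-response genes DUSP1 and KLF4 fell, IER5 rose and most did not pass. DUSP1 (Ssc.6058.1.S1_at), the phosphatase that switches off MAP kinases, had 1122, 1523 and 1272 in MB180 and 3494, 4161 and 2652 in MB30, a 2.63-fold lower level at 180 min (log2 difference -1.37 ± 0.30, limma adjusted p = 0.0386). With 1540, 2194 and 1615, the 60 min animals lay below all those at 30 min. DUSP1 in MB180 still lay wholly above CA0, which had 880, 600 and 443.

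KLF4 (Ssc.9984.1.A1_at), a zinc finger transcription factor, had 72.1, 151 and 78.6 in MB180, against a narrow 320, 314 and 317 in MB30. It was 3.15-fold lower at 180 min (log2 difference -1.58 ± 0.33, adjusted p = 0.0313). The 60 min animals, with 235, 310 and 228, lay below all those at 30 min, and their mean had covered 18.8% of the log2 distance. MB180 overlapped the CA0 values of 119, 68.7 and 52.4. ID3 (Ssc.1638.1.S1_at), an inhibitor of basic helix-loop-helix transcription factors that stands on none of the lists, had 516, 577 and 432 in MB180 and 1059, 946 and 813 in MB30 (1.85-fold lower, log2 difference -0.87 ± 0.16, adjusted p = 0.00953). Its 60 min values of 683, 676 and 546 lay below all those at 30 min.

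IER5 (Ssc.19350.1.S1_at), an early-response gene of the same list, went the other way, with 767, 665 and 918 in MB180 and 464, 478 and 434 in MB30. It was 1.71-fold higher (log2 difference 0.74 ± 0.16, adjusted p = 0.04), and a second tested IER5 probe set differed by 0.32 and did not pass (adjusted p = 0.913). Each of these 4 calls was lost when some single arrays were left out, with the sign of the difference kept. DUSP1 was lost without MB180 replicate 1 or 3 or MB30 replicate 1 or 2 (adjusted p = 0.125 to 0.235). KLF4 was lost without any single array except MB180 replicate 2 (0.102 to 0.17). ID3 was lost without MB180 replicate 3 or MB30 replicate 1 or 2 (0.0556 to 0.0945), and IER5 without any array except MB180 replicate 2 (0.106 to 0.252). With EIF1AY as a covariate KLF4 (0.0791) and DUSP1 (0.14) did not pass either.

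Of 22 tested immediate early genes, IER5 rose, DUSP1 and KLF4 fell and 19 did not pass, where 0.286% of all probe sets tested passed. The list's median was -0.12, and 9 (40.9%) lay above 0, against 48.1% of all probe sets tested. FOS, the classical early transcription factor, had 2279 to 3952 in MB180 and 4754 to 5136 in MB30, without overlap but with a wide error (-0.82 ± 0.41, adjusted p = 0.74). EGR1 had 2296 to 3474 in MB180 and 2242 to 3413 in MB30 and overlapped throughout (0.09 ± 0.45). CYR61, a matricellular protein that also stands on the vascular list, had 129 to 285 in MB180 and 311 to 404 in MB30 (-0.86 ± 0.29, adjusted p = 0.374). JUNB and NR4A1 had no probe set with their symbol.

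RRAD was the single gene of the list of vascular matrix, clotting and tone that passed. The members of that list were chosen with earlier results of these data known. GPR4 and HPSE, which stand on none of the lists, were placed beside RRAD after the calls were seen. RRAD (Ssc.26230.1.S1_at), a Ras-related GTPase that dampens voltage-gated calcium channels, had 205, 197 and 413 in MB180 and 44.5, 26.4 and 135 in MB30. Replicate 3 was high at both times, and the groups still did not overlap (3.96-fold, log2 difference 1.90 ± 0.37, limma adjusted p = 0.0187). Its 60 min values of 92.7, 114 and 111 were between the group means, and CA0 had 16.5 to 44.2. GPR4 (Ssc.5191.1.S1_at), a proton-sensing receptor of endothelium, had 106, 113 and 141 in MB180 and 52.8, 31.5 and 40.7 in MB30 (2.88-fold, 1.25 ± 0.24, adjusted p = 0.0146). Its course differed from the others, since MB60 had reached 136, 169 and 99.6 and CA0 had 97.5, 74.1 and 61.7, so that MB30 was the low group. HPSE (Ssc.7093.1.A1_at), the enzyme that cleaves heparan sulfate, had 326, 226 and 273 in MB180 and 108, 126 and 191 in MB30 (1.94-fold, 0.91 ± 0.18, adjusted p = 0.0188), while a second tested HPSE probe set differed by 0.05 (adjusted p = 0.996).

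None of these 3 calls held without every array in turn. RRAD was lost without MB180 replicate 3 or MB30 replicate 1 or 2 (adjusted p = 0.107 to 0.167), GPR4 without MB180 replicate 3 or MB30 replicate 2 or 3 (0.0588 to 0.112) and HPSE without MB180 replicate 1 or 3 or MB30 replicate 1 or 2 (0.0906 to 0.128). With EIF1AY as a covariate RRAD (0.122), GPR4 (0.0653) and HPSE (0.116) did not pass. The other 27 of 28 tested genes of the vascular list did not pass, where 0.286% of all probe sets tested passed. The median of the 28 was 0.15. TIMP1, an inhibitor of matrix metalloproteinases, had 335, 411 and 474 in MB180 and 178, 254 and 185 in MB30, without overlap (0.93 ± 0.23, adjusted p = 0.0925). ADAMTS1, a secreted protease, had 704 to 1066 in MB180 and 569 to 731 in MB30 (0.39 ± 0.25). A second tested ADAMTS1 probe set had the opposite sign (-0.27 ± 0.24), and neither passed.

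Several genes that passed belong to none of the lists. FUCA2 (Ssc.10327.1.A1_at), an alpha-L-fucosidase of glycoprotein turnover, had 478, 575 and 616 in MB180 and 100, 228 and 179 in MB30, 3.29-fold apart (log2 difference 1.69 ± 0.24, limma adjusted p = 0.000495). Its 60 min animals lay between, with 341, 284 and 246, and CA0, with 69.7 to 82.4, lay below every methylene blue array. SIX4 (Ssc.22477.1.S1_at), a homeobox transcription factor, had 167, 111 and 144 in MB180 and 59.6, 32.9 and 35 in MB30 (3.31-fold, 1.44 ± 0.24, adjusted p = 0.00463), and at 60 min it overlapped the 30 min animals. C1H15orf48 (Ssc.19389.1.A1_at) had 114, 104 and 88.2 in MB180 and 31.6, 29.4 and 31.8 in MB30 (3.29-fold, 1.32 ± 0.24, adjusted p = 0.00972). Its 60 min mean of 24.8 was below that at 30 min, and the call was lost without MB180 replicate 1 (0.0614) or MB30 replicate 2 (0.0605). GMPR2, a GMP reductase of purine salvage, had 1674, 1018 and 957 in MB180 and 576, 466 and 482 in MB30 (2.39-fold, 1.19 ± 0.26, adjusted p = 0.0451) but was lost without any single array (0.0551 to 0.236) and with EIF1AY as a covariate (0.144).

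PABPN1 (Ssc.21219.1.S1_at), the nuclear poly(A)-binding protein, was the fifth named gene that fell, with 528, 491 and 492 in MB180 and 746, 963 and 766 in MB30 (1.64-fold lower, log2 difference -0.69 ± 0.12, limma adjusted p = 0.00463). Its MB30 arrays overlapped CA0, which had 801, 841 and 871, and MB180 was below both. The other PABPN1 probe sets, both tested, differed by 0.05 and -0.08, so the change was seen on 1 of 3, and it was lost without MB30 replicate 2 (0.0656). The remaining 3 of the 21 named probe sets were chosen for mention after their values were seen. YBX3, a cold-shock domain protein that binds RNA, differed by 0.77 ± 0.17 (adjusted p = 0.0386). PAPD5, a poly(A) polymerase that tails non-coding RNA, differed by 0.66 ± 0.12 (adjusted p = 0.00953) and by the same 0.66 on a second probe set that did not pass (0.0678). NOP2, a nucleolar methyltransferase of ribosomal RNA, differed by 0.51 ± 0.11 (adjusted p = 0.0449). All 3 were higher in MB180, and each was lost without several of the single arrays (0.0535 to 0.307). With EIF1AY as a covariate YBX3 (0.12) and NOP2 (0.0791) did not pass.

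The smallest p-values belonged to probe sets without a gene symbol. Ssc.10786.1.A1_at had 509, 393 and 431 in MB180 and 131, 128 and 117 in MB30, with 225, 216 and 260 at 60 min (log2 difference 1.69 ± 0.16, limma adjusted p = 1.38e-06). Ssc.18001.1.A1_at had 118, 113 and 91.2 in MB180 and 289, 351 and 339 in MB30, with 157, 197 and 217 at 60 min (-1.47 ± 0.14, adjusted p = 1.38e-06). Both ran in graded steps, one up and one down, with no overlap between neighbouring times. Ssc.18072.1.A1_at, higher by 1.77 ± 0.29, and Ssc.8807.1.A1_at, with a log2 difference of -2.20, were the largest changes that passed without a symbol.

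**Figure D3:**
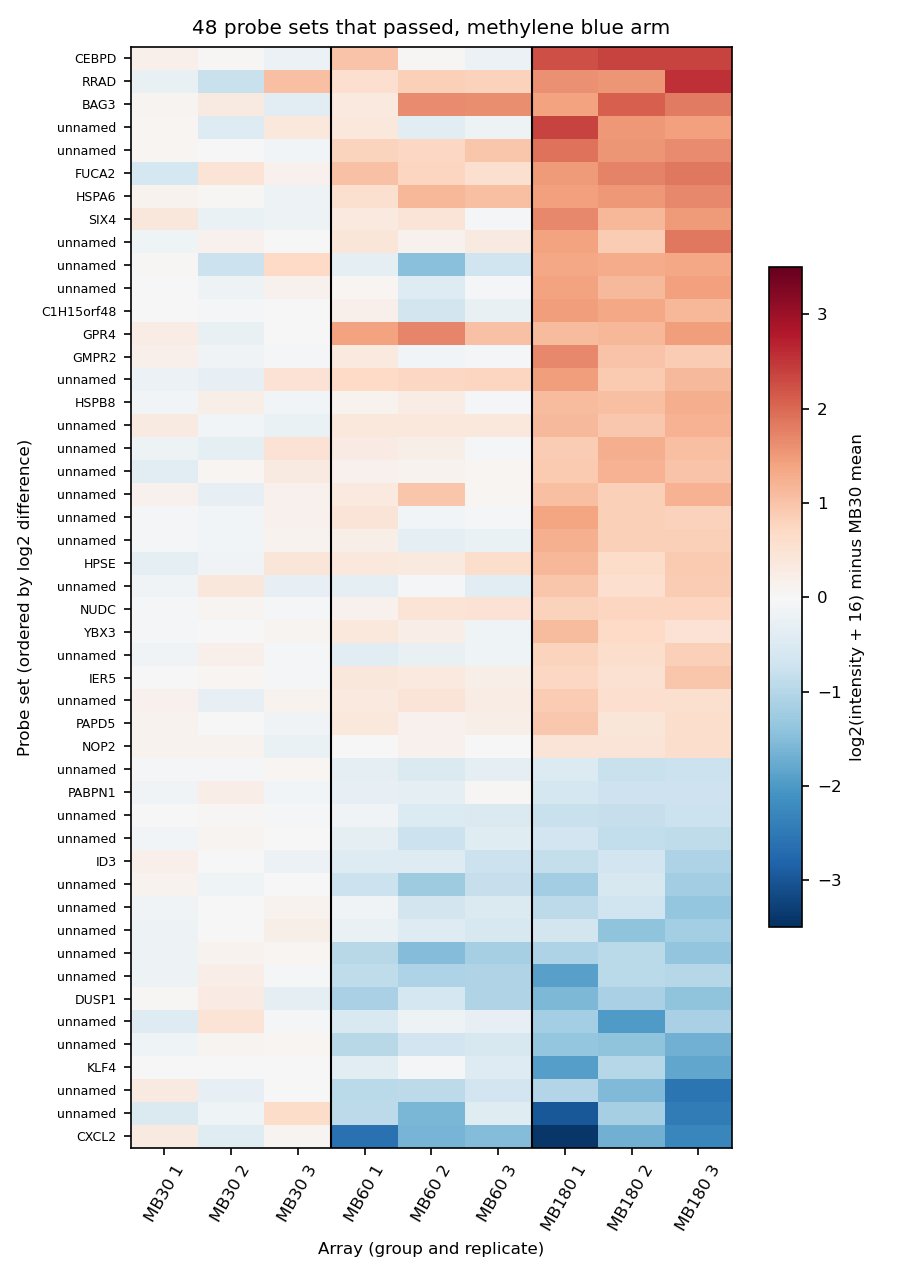
The 48 probe sets that passed (rows, ordered by log2 difference MB180 minus MB30) on the 9 arrays of the methylene blue arm (columns, from 30 to 180 min). Colour is log2(intensity + 16) minus the MB30 mean of that row; probe sets higher in MB180 are mostly pale at 60 min, and those lower in MB180 already have blue at 60 min.

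By the median, the higher probe sets had covered less of the log2 difference at 60 min than the lower ones, a contrast that was not tested. Among the 31 higher probe sets the MB60 mean lay between the MB30 and MB180 means in 23, below MB30 in 7 and above MB180 in 1. The median distance covered at 60 min was 20.8% of the log2 difference, and 26 of the 31 had covered less than 50%. Among the 17 lower probe sets the MB60 mean lay between in 16 and below MB180 in 1, the median distance was 50.0%, and 9 had gone past 50%. CXCL2 had covered 78.6%, DUSP1 68.1% and ID3 63.7%, against 18.8% for KLF4. On the rising side BAG3 had covered 68.5% and HSPA6 60.1%, against 9.58% for HSPB8, 12.0% for CEBPD and 17.6% for SIX4. These shares share the MB30 and MB180 means that chose the probe sets and are given as a description.

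Set against the arrest control, most of the higher genes stood above it at 180 min and not at 30 min. Of the 31 higher probe sets, MB180 lay wholly above CA0 in 27 (16.7% of all tested did), whereas MB30 lay wholly above in 6 (19.5%), wholly below in 6 (12.8%) and overlapped in 19. Of the 17 lower probe sets, MB180 lay wholly below CA0 in 10 (12.2%), wholly above in 2 and overlapped in 5. For these 17, MB30 lay wholly above CA0 in 8, overlapped in 7 and lay wholly below in 2. The higher or lower direction had chosen the MB180 and MB30 values, so these counts are a description. The 3' to 5' ratio of CA0, at 1.66 to 1.92, was above that of both groups, and its part in these levels was not tested.

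Other lists for the tissue and the treatment, chosen with earlier results of these data known, held no gene that passed. They were hypoxia and glycolysis (27 tested, median -0.05), oxidative stress defence (28, 0.06), growth arrest with apoptosis and p53 targets (19, 0.09), the nitric oxide and cGMP pathway (13, -0.12), the nuclear-encoded respiratory chain (58, -0.01), glutamate and GABA transmission (9, -0.11) and cytosolic ribosomal proteins (60, -0.06). The nitric oxide pathway is the one methylene blue is known to act on. In it NOS2, the inducible synthase, had 47.9 to 80.0 in MB180 and 45.1 to 73.9 in MB30 (0.13 ± 0.30), and NOS3, the endothelial synthase, had 103 to 188 in MB180 and 142 to 217 in MB30 (-0.14 ± 0.22). Arginase ARG2 differed by 0.28 ± 0.20 and DDAH1, which degrades inhibitors of the synthases, by -0.30 ± 0.24.

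GADD45A, a growth arrest gene induced by DNA damage, came near the threshold with 385, 375 and 342 in MB180 and 164, 254 and 207 in MB30 (0.79 ± 0.19, limma adjusted p = 0.0875). Its relatives GADD45G (0.69 ± 0.18, adjusted p = 0.142) and GADD45B (0.66 ± 0.26, adjusted p = 0.499) also had non-overlapping groups and did not pass. A second tested GADD45B probe set differed by 0.77 ± 0.19 (adjusted p = 0.0909). Ssc.9380.2.S1_a_at has no symbol but shares the leading part of its ID with the GADD45B list probe set. It passed as higher (1.04 ± 0.22, adjusted p = 0.0313), and whether it reads GADD45B was not tested. CDKN1A, the p53-induced cell cycle inhibitor, differed by 0.34 ± 0.22. SOD2, the mitochondrial superoxide dismutase, had 1498 to 1788 in MB180 and 929 to 1382 in MB30 (0.55 ± 0.17, adjusted p = 0.307). MT1A, a metallothionein, had 401, 307 and 295 in MB180 and 40.9, 250 and 198 in MB30, with 1 low animal at 30 min (1.23 ± 0.44, adjusted p = 0.433). HMOX1, heme oxygenase, differed by 0.09 ± 0.30. Glucose transporters SLC2A1 (-0.29 ± 0.13) and SLC2A3 (-0.12 ± 0.15), the vasodilator peptide ADM (0.23 ± 0.27) and the MYC antagonist MXI1 (0.23 ± 0.15) did not pass. Respiratory chain genes NDUFA7 (0.36 ± 0.16) and ATP5L (-0.24 ± 0.14) and ribosomal RPL26L1 (0.30 ± 0.11) and RPL15 (-0.36 ± 0.15), the members with the smallest p of their lists, did not pass either.

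**Figure D4:**
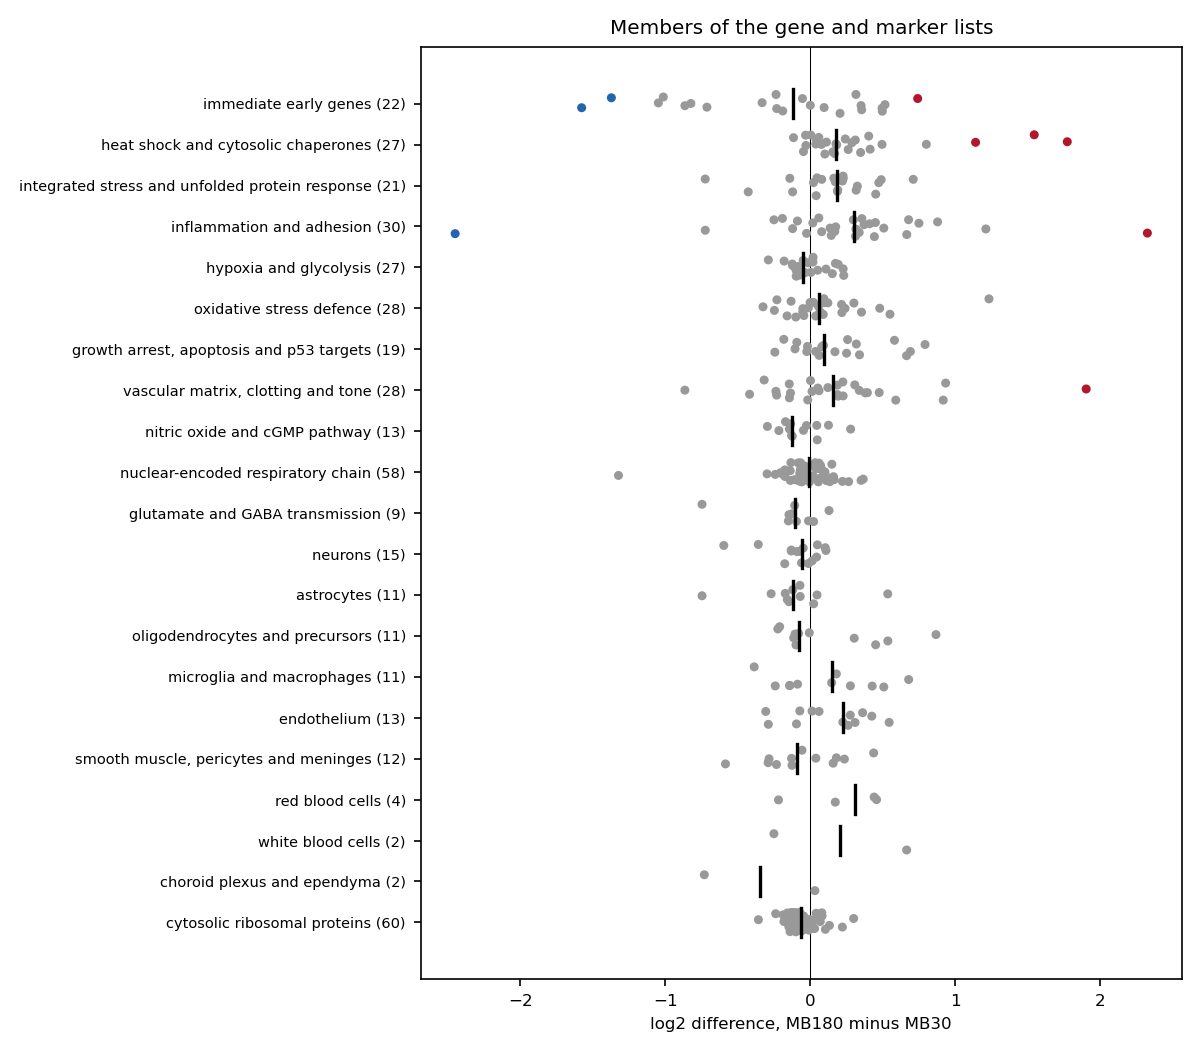
Log2 difference MB180 minus MB30 (x axis) of the tested members of the 12 pathway and 9 cell type marker lists, at 1 probe set a gene, with the number tested in parentheses. Red points passed as higher, blue points as lower, grey points did not pass, and the black bar is the median of the list; points that passed occur in 4 lists.

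No marker gene of a cell type passed, in 9 lists with 2 to 15 tested genes. Medians were -0.06 for neurons, -0.12 for astrocytes, -0.08 for oligodendrocytes, 0.15 for microglia, 0.22 for endothelium and -0.09 for smooth muscle with pericytes and meninges. The vascular markers CLDN5 of tight junctions (0.54 ± 0.24), PECAM1 of endothelium (0.42 ± 0.18) and PDGFRB of pericytes (0.44 ± 0.14) were each without overlap and above 0. For CLDN5 the margin was small, with 505 as the lowest value in MB180 and 504 as the highest in MB30. ACTA2 of smooth muscle was without overlap and below 0 (-0.59 ± 0.23). Such a separation was shown by 11.2% of all tested probe sets, and these markers did not pass (limma adjusted p = 0.345 to 0.645). Of the 13 endothelial genes 9 were above 0 (69.2%, against 48.1% of all probe sets tested), and the lowest was at -0.31. Of the 3 endothelial genes with an unadjusted p under 0.05 in limma, CLDN5 and PECAM1 were higher and SLC2A1 was lower. Summed over 14 endothelial genes, intensities were 4110 to 4911 in MB180 and 3752 to 5296 in MB30. Of 11 microglial genes 6 (54.5%) were above 0, with a range from -0.39 to 0.68. LCP1 (0.68 ± 0.32) and CD14 (0.51 ± 0.27), those with the smallest p, had low intensities, and the 12 microglial genes summed to 2632 to 2940 in MB180 and 2598 to 3223 in MB30. The 12 white blood cell genes summed to 599 to 723 in MB180 and 499 to 770 in MB30, and 2 of them passed the filter on low values. They had opposite signs: CD8A of T cells had 45.4 to 68.3 in MB180 and 19.0 to 43.3 in MB30 (0.66 ± 0.28), and FCGR3A, an Fc receptor of myeloid and natural killer cells, had 280 to 301 in MB180 and 223 to 492 in MB30 (-0.25 ± 0.29). Red blood cell genes summed to 929 to 1608 in MB180 and 1151 to 1650 in MB30, with beta globin HBB at -0.22 ± 0.18 and the globin chaperone AHSP at 0.46 ± 0.47. Choroid plexus genes summed to 251 to 656 in MB180 and 386 to 631 in MB30, with the water channel AQP1 at -0.73 ± 0.87 and the folate receptor FOLR1 at 0.03 ± 0.26.

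Neuronal SYN2 (-0.60 ± 0.30) and SST (-0.18 ± 0.19) and the inhibitory synapse scaffold GPHN (-0.13 ± 0.12) did not pass. Astrocyte GLUL, glutamine synthetase, had 4036, 3066 and 7386 in MB180 and 5137, 10281 and 8215 in MB30 (-0.75 ± 0.24, limma adjusted p = 0.354). Without MB180 replicate 3, its high animal, the difference was -1.10 and passed (adjusted p = 0.0455). Astrocyte ALDH1L1 (0.53 ± 0.24) and GFAP (-0.12 ± 0.23) and oligodendrocyte MAL (0.53 ± 0.41), OLIG2 (0.45 ± 0.29) and MBP (-0.22 ± 0.22) did not pass. Summed marker intensities of all 9 lists overlapped between MB180 and MB30.

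The saline arm gave the same time comparison in other animals, SAL180 against SAL30, which shares no array with MB180 and MB30. Both comparisons came from one fit and shared its estimate of spread, so the calls of the arms were not independent. All 48 probe sets had the same sign there, 31 up and 17 down, where 62.5% of all tested probe sets had the same sign in both arms. Of the 48, 31 also passed in the saline arm, 21 higher and 10 lower. The saline arm had 110 calls in all (0.655%), so the shared ones were 64.6% of the methylene blue calls and 28.2% of the saline calls. The saline arrays SAL30 replicate 1 and SAL180 replicate 3 correlated less with their groups than the other arrays of those groups. Without both, all 48 kept their sign and 16 passed in the saline arm. Leaving out SAL30 replicate 2 or 3 or SAL180 replicate 2 or 3 alone left 20, 20, 19 and 16 of the 48 passing there, and all 48 with the same sign each time. The 3' to 5' ratio moved with time in this arm too, at 1.39 to 2.60 in SAL180 and 1.22 to 1.35 in SAL30, without overlap. With it as a covariate all 48 had the same sign, 22 of them passed in the saline arm, and that arm had 64 calls in all.

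CEBPD averaged 685 ± 38.3 in SAL180 and 177 ± 69.1 in SAL30 (SD, n = 3 each), a log2 difference of 1.92 ± 0.34. CXCL2 averaged 29.9 ± 15.4 in SAL180 and 407 ± 64.8 in SAL30 (-3.24 ± 0.43), and HSPB8 1810 ± 269 in SAL180 and 779 ± 55.6 in SAL30 (1.19 ± 0.15). All 3 passed in both arms (saline limma adjusted p = 0.00453, 0.000226 and 0.000163). BAG3, KLF4, ID3, GPR4, HPSE and YBX3 passed under methylene blue and not under saline (adjusted p = 0.109 to 0.582), which does not show a difference between the arms.

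**Figure D5:**
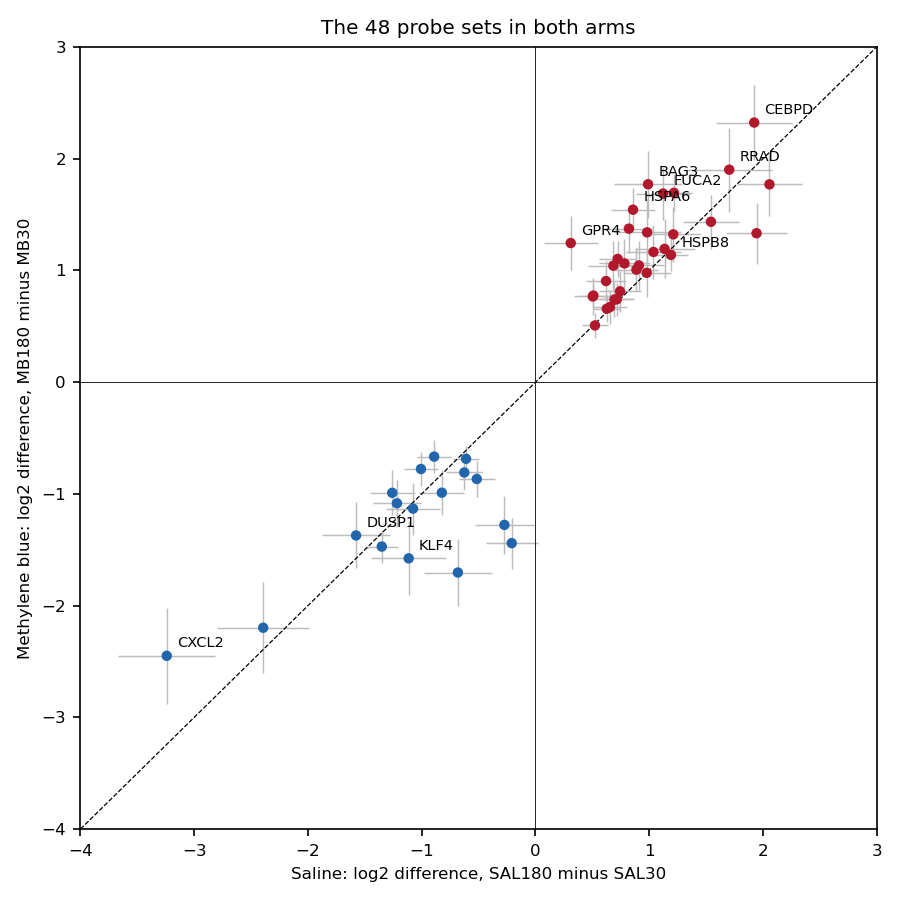
Log2 differences 180 minus 30 min of the 48 probe sets under methylene blue (y axis) and under saline (x axis), with standard errors as grey bars and the line of equal change dashed. Red points were higher and blue points lower in MB180 than in MB30; all 48 lie in the upper right or lower left of the plot, and GPR4 lies farthest from the line among the named genes labelled above 0.

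The difference between the arms was tested directly, as the MB180 minus MB30 difference less the SAL180 minus SAL30 difference. No probe set passed (0%, smallest limma adjusted p = 0.999), and 625 had an unadjusted p under 0.05 (3.72%), fewer than the 840 passed with no difference anywhere. The median standard error was 0.30 for this difference, against 0.21 for the change over time in one arm. For CEBPD the arms differed by 0.40, with a 95% interval of -0.58 to 1.38, and for CXCL2 by 0.79 (-0.45 to 2.04). HSPB8 had the narrowest interval of these 3, with a difference of -0.05 (-0.48 to 0.38). For HSPA6 the difference was 0.69 (0.12 to 1.25, unadjusted p = 0.0198), where MB180 averaged 5227 ± 485 and MB30 1784 ± 194, against 5007 ± 671 in SAL180 and 2803 ± 743 in SAL30 (SD, n = 3 each). GPR4 differed by 0.93 (0.24 to 1.63, unadjusted p = 0.0101), with SAL180 at 103 ± 24.8 and SAL30 at 81.9 ± 31.5. HSPA6 and GPR4 were chosen by the methylene blue change that enters this difference, and neither passed after adjustment.

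The named genes with the smallest p for the arm difference did not pass either. DDX11, a DNA helicase, had 101, 99.2 and 114 in MB180 and 130, 153 and 148 in MB30, against 122, 121 and 133 in SAL180 and 82.0, 95.1 and 104 in SAL30. The signs were opposite in the arms, and the arm difference was -0.77 (-1.15 to -0.39). Its unadjusted p in the limma fit across all probe sets was 0.000302. DIEXF, a nucleolar factor of ribosome production, differed by -0.86 (-1.29 to -0.42, unadjusted p = 0.000437), and PRPS2, a phosphoribosyl pyrophosphate synthetase, by -1.07 (-1.64 to -0.50, unadjusted p = 0.000725). All 3 had an adjusted p of 0.999.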

How the data were processed

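The deposited table holds array intensity on a linear scale, which the authors made with GCOS per the submitters' processing notes, with no version or signal algorithm named there. Each array's mean intensity, trimmed by 2% at both ends, lay at 300.05 to 300.06. Values were analysed as log2(intensity + 16), so the log2 difference of a dim gene is understated. Of 24123 probe sets, 124 controls were left out, and those with a mean below the 30th percentile (intensity 29.5) were not tested, which left 16799. Of the 23999 probe sets kept, the platform table gave 1 symbol to 10110, several to 157 and none to 13732. No sequence or genome position was used here.

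One limma fit (limma 3.58.1, R 4.3.3) gave a mean to each of the 10 groups on all 30 arrays (20 residual degrees of freedom), moderated by empirical Bayes with an intensity trend. Tests were two-sided, and p-values were adjusted by Benjamini-Hochberg over all probe sets tested. The pipeline was tested on simulated data. Fold changes are ratios of mean intensities without the added 16, and errors of log2 differences are standard errors. An exact permutation test of 3 arrays against 3 cannot go below 0.1. The number of arrays limits the precision.

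The comparison, the gene lists and the naming rule were chosen with earlier results of these data known. Named were, among probe sets with 1 symbol that passed without overlap, the 12 largest in each direction, the members of each list that passed and its 2 with the smallest p, a fixed set of 30 genes, and the 3 smallest p for the arm difference. A gene's list value is its brightest probe set. Alternatives were other pseudocounts, filters, normalizations, samples, moderation and weights, the replicate block, the 3' to 5' ratio, and each array left out. The EIF1AY covariate, and the saline checks, were chosen after seeing the data.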

Additional observations from a re-analysis of the deposited data

How the results depend on the processing

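Of the 31 higher and 17 lower probe sets, the count of higher ones was 20 with a pseudocount of 1 and 53 with quantile normalization. A fit to MB180 and MB30 alone gave 5 and 1, and a fit to the methylene blue arm alone 6 and 3; the spread is then estimated on fewer arrays. With EIF1AY as a covariate there were 15 and 10. Leaving out each array gave 15 to 37 higher and 5 to 23 lower. Same-numbered animals of MB180 and MB30 correlated at 0.13, 0.06 and -0.05 in their deviations from the group means. These correlations were low, but 1 value for each number cannot decide whether same-numbered animals were processed together. The replicate block gave 31 and 18, of which 28 and 17 were shared with the fit without it; GMPR2 (adjusted p = 0.0686), IER5 (0.0549) and YBX3 (0.0569) lost their calls under it and no other named gene did. The difference between the arms had 0 calls in limma under every alternative that was run. CEBPD, HSPA6 and HSPB8 kept their calls throughout, and BAG3, FUCA2, SIX4 and NUDC without each array in turn. In the limma fit to MB180 and MB30 alone, FUCA2 (adjusted p = 0.113), SIX4 (0.138) and NUDC (0.113) did not pass. In the fit to the methylene blue arm alone, BAG3 (0.0859), SIX4 (0.0836) and NUDC (0.0683) did not pass. Some small differences that had not passed turned their sign, and the cause was not tested: with EIF1AY as a covariate EGR1 (-0.23), HMOX1 (-0.15) and NOS2 (-0.066), with quantile normalization MBP (0.0068), and with array weights FOLR1 (-0.038). Without single arrays EGR1 ranged from -0.067 to 0.29, DNAJB1 from -0.076 to 0.25, HMOX1 from -0.041 to 0.28, NOS2 from -0.027 to 0.31, NOS3 from -0.29 to 0.10, GFAP from -0.31 to 0.088, HBB from -0.39 to 0.030, AHSP from -0.066 to 0.83, FOLR1 from -0.033 to 0.13 and MBP from -0.43 to 0.012. GADD45A passed with quantile normalization (0.0465) and with array weights (0.0366), and TIMP1 with quantile normalization (0.0499). Calls were also lost with a pseudocount of 1 for C1H15orf48 (0.087) and for GMPR2, KLF4, DUSP1, IER5 and NOP2 (0.0509 each), and with array weights for GMPR2 (0.055), KLF4 (0.0801), DUSP1 (0.055) and IER5 (0.0823). With 3 animals a group, 14 of the 21 named calls, CXCL2 among them, were lost without at least 1 single array.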
